A study of Mus musculus with 2 samples.

Results

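Subunits of the GABA-A receptor and both members of its main chloride transporter pair were followed through 2 single-cell RNA-seq libraries of the perinatal mouse forebrain. The 8 genes were taken as a named list: the alpha subunits Gabra2, Gabra3, Gabra4 and Gabra5, the beta subunits Gabrb1 and Gabrb2, and the chloride transporters Slc12a2 and Slc12a5. All 8 were found in both matrices, among 31053 mouse genes. The P2 library held cells of Emx1Cre;R26Eyfp fl/fl mice at postnatal day 2, from the dorsal and lateral ventricular-subventricular zone (V-SVZ), a germinal layer lining the lateral ventricles, collected once the overlying cortex had been taken off. In that line Cre recombinase, made where Emx1 is active, switches on EYFP, so that descendants of the cortical primordium are labelled. The E18 library held cells of CD1 mice at embryonic day 18, from tissue above the lateral ventricles in front of the hippocampus, with cortex and V-SVZ together. Both tissues were digested with papain and sorted for living nucleated cells (negative for propidium iodide, positive for DRAQ5), and polyadenylated RNA was read. The study set out to describe the dorsal V-SVZ around birth. Each age had 1 library, the number of animals behind it is not clear from the labels (the P2 title carries an unexplained n2), and age cannot be told apart from dissection, mouse line and library.

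The P2 matrix had 2778 barcodes and 42572208 unique molecular identifiers (UMIs, tags that count RNA molecules), and the E18 matrix 2922 barcodes and 19986915 UMIs. After filtering, 2296 P2 cells with a median of 12525 UMIs and 2496 E18 cells with a median of 6574 UMIs remained, and the libraries shared 0 barcodes. Clusters were named from marker lists, which gave 12 P2 and 11 E18 classes. Each class name means cells like that type by those markers, no more. The P2 astroglial class (173 cells) and the E18 astroglial class (92 cells) held radial precursors, stem cells and maturing astrocytes together: all 12 radial precursor markers reached 20 CPM (UMIs of a gene in a class scaled to a class total of 1000000) in both, as did 8 P2 and 7 E18 of the 10 maturing astrocyte markers. A P2 cluster of 248 cells led by Foxp2, Syt1, Pbx3 and Tshz1 stayed unnamed and is called the Foxp2/Tshz1 cluster. The 8 genes were left out of the clustering, as were the lists of other GABA and chloride genes given at the end.

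GABA-A receptors are pentameric chloride channels opened by the transmitter GABA. Alpha and beta subunits together form the GABA site, and the alpha subunit present sets sensitivity, speed and place at or outside synapses. Whether opening the channel excites or inhibits a cell depends on its internal chloride: Slc12a2 (NKCC1) brings chloride in with sodium and potassium, and Slc12a5 (KCC2) carries it out with potassium. In young forebrain neurons import prevails and GABA can depolarise, export by Slc12a5 takes over as neurons mature, and GABA also slows division of postnatal V-SVZ stem cells.

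Gabra2, Gabra4 and Gabrb1 lie together on mouse chromosome 5 (GRCm38, GENCODE positions): Gabra2 (ENSMUSG00000000560, chr5:70957597-71095849) and Gabra4 (ENSMUSG00000029211, chr5:71569749-71658308) on the minus strand and Gabrb1 (ENSMUSG00000029212, chr5:71658113-72149037) on the plus strand. Gabra4 and Gabrb1 start head to head, and their GENCODE models overlap by 196 bases. The other subunit genes are Gabra3 (ENSMUSG00000031343, chrX:72432681-72656848, minus), Gabra5 (ENSMUSG00000055078, chr7:57407672-57510059, minus) and Gabrb2 (ENSMUSG00000007653, chr11:42419757-42629028, plus). The exporter gene Slc12a5 is ENSMUSG00000017740 (chr2:164960802-164999731, plus). No source used here says whether counting used strand, and without it reads of a gene cannot be told apart from those of any gene that overlaps it on the opposite strand.

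Start regions are shown for the chromosome 5 genes, whose levels differ between neuronal and astroglial classes, and for Slc12a5, whose 2 starts have been described as separate promoters. They come from RefSeq windows on GRCm38.p6 (250 bases before to 50 after a start), trimmed to bases outside GENCODE exons, and read 5′ to 3′ on the gene's strand. Capitals mark matches, on either strand, to the palindromic consensus site of NRF1, an E-box (CACGTG), a GC box (GGGCGG) or a TATA box (TATAAA). No printed match overlaps another.
Gabra2 chr5:71095850-71096099 (-): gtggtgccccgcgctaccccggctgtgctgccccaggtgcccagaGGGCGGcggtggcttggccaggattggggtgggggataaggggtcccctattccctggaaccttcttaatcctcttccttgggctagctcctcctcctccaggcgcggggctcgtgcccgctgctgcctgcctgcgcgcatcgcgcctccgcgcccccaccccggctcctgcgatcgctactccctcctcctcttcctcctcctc
Gabra4 chr5:71658364-71658558 (-): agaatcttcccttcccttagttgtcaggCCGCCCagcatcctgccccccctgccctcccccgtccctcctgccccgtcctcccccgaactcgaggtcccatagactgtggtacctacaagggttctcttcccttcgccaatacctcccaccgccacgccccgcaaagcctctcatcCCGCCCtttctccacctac
Gabrb1 chr5:71657671-71657723 (+): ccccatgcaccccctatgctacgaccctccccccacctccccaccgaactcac
Gabrb1 chr5:71699825-71699931 (+): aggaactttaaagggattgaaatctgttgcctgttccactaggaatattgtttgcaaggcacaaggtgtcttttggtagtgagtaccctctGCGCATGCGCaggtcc
Slc12a5 chr2:164960596-164960801 (+): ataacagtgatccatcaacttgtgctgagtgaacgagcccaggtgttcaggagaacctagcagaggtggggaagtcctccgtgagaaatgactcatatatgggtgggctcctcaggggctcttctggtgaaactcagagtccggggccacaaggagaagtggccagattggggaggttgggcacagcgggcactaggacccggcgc
Slc12a5 chr2:164967738-164967982 (+): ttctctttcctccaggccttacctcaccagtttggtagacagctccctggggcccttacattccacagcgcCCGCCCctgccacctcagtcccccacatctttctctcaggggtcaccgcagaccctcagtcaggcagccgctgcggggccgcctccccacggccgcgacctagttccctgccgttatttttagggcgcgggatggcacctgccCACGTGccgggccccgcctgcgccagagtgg

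The second Gabrb1 stretch holds an NRF1 site, a motif found in 0.782% of all 32851 windows. The second Slc12a5 stretch holds an E-box, found in 6.02% of windows, and a GC box, found in 32.7%. Gabra2 holds 1 GC box and Gabra4 holds 2. The first Slc12a5 stretch and the first Gabrb1 stretch, 53 bases that lie inside the Gabra4 gene model, hold none of the 4 motifs. The Gabra4 stretch in turn lies inside the Gabrb1 model, and the second Gabrb1 and Slc12a5 stretches lie before starts inside their own genes. RefSeq gave 12 windows for 7 of the genes and none for Slc12a2. Over these 12 full windows the TATA box was in 3, against 12.4% of all windows. These matches are descriptions of letters and say nothing of a factor's binding.

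**Figure D1:**
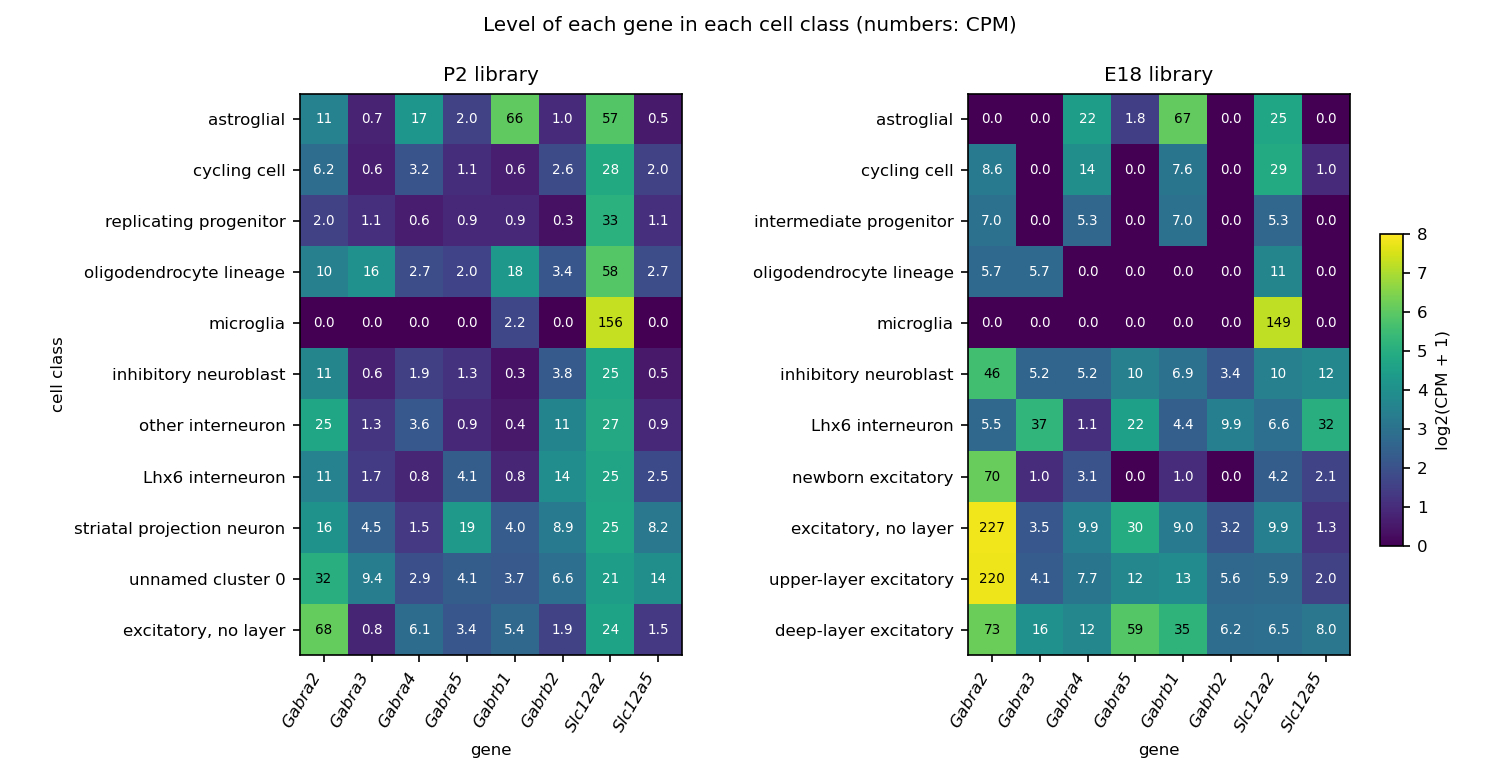
Level of each gene (columns) in each cell class (rows) of the P2 library (left) and the E18 library (right), classes of 10 or more cells; numbers are CPM and colour is log2(CPM + 1). Gabra2 is highest in E18 excitatory neurons (227 and 220 CPM in the classes without and with upper-layer markers), Gabrb1 in astroglial cells of both ages (66 and 67 CPM), and Slc12a2 in microglia of both ages (156 and 149 CPM).

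Gabra2, an alpha subunit of the developing forebrain, was highest in excitatory neurons of both libraries. In the P2 library it reached 67.7 CPM (95% Poisson interval 58.1 to 78.4) in excitatory neurons, 31.6 CPM in the Foxp2/Tshz1 cluster and 25.4 CPM in interneurons outside the Lhx6 class. Striatal projection neurons had 16.1 CPM, inhibitory neuroblasts 11.5 CPM, Lhx6 interneurons 10.7 CPM, astroglial cells 10.6 CPM and oligodendrocyte lineage cells 10.2 CPM, and these 5 intervals overlapped. Excitatory neurons thus stood above every other P2 class beyond counting error, and the lowest levels in classes of 30 or more cells were 6.22 CPM in cycling cells, 2.00 CPM in replicating progenitors and 0 UMIs in microglia. In the E18 library Gabra2 had 226.6 CPM (210.2 to 243.9) in excitatory neurons without a layer and 219.8 CPM (208.7 to 231.4) in upper-layer neurons, which did not differ beyond counting error. Deep-layer neurons had 72.7 CPM (63.9 to 82.3), newborn excitatory neurons 69.9 CPM (54.2 to 88.7) and inhibitory neuroblasts 46.4 CPM (30.6 to 67.5). Other E18 classes had at most 8.60 CPM, and Lhx6 interneurons, the migrating cortical interneurons of the ganglionic eminence, had 5.48 CPM from 5 UMIs. Astroglial cells of the E18 library had 0 Gabra2 UMIs in 554957, which allows up to 6.65 CPM by the 95% Poisson interval.

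Within the E18 excitatory classes Gabra2 varied between clusters of 1 name. The upper-layer cluster led by Gabra2, Cntn2 and Hs6st2 had 407.0 CPM (378.2 to 437.3), and 81.9% of its 298 cells held a UMI. The Calb2 cluster had 301.6 CPM, the Ntf3/Cck cluster 198.0 CPM, the Fam19a2/Cux1 cluster 195.1 CPM and the Sema3c/Unc5d cluster 161.5 CPM. The Rorb cluster, also named upper-layer, had 49.6 CPM, below all other upper-layer clusters. The deep-layer clusters led by Nefl and Fezf2 and by Hs3st4 and Tle4 had 96.0 and 21.7 CPM (83.8 to 109.4 and 13.7 to 32.5), which do not overlap either. A Gabra2 UMI was seen in 38.0% of P2 excitatory neurons (median 12250.5 UMIs), and in 61.2% of E18 upper-layer neurons (median 6634 UMIs). As a measure of stray RNA, 0 of 43 P2 microglia (median 19431 UMIs, upper bound 8.22%) and 0 of 92 E18 astroglial cells (median 6178.5 UMIs, upper bound 3.93%) held one. With every cell thinned to 3000 UMIs the shares were 17.9% of P2 excitatory neurons and 42.2% of E18 upper-layer neurons.

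The alpha subunits Gabra3 and Gabra5 stood highest in other classes. At P2 Gabra3 had 15.7 CPM (9.95 to 23.6) in oligodendrocyte lineage cells and 9.43 CPM in the Foxp2/Tshz1 cluster, and Lhx6 interneurons held 2 UMIs (1.65 CPM). At E18 it had 37.3 CPM (25.8 to 52.1, 34 UMIs) in Lhx6 interneurons and 15.7 CPM (11.7 to 20.5) in deep-layer neurons. All other classes were at 5.69 CPM or less, and astroglial cells held 3 UMIs at P2 and 0 at E18. Gabra5, the alpha subunit of many receptors outside synapses, was highest at P2 in striatal projection neurons, at 18.6 CPM (14.6 to 23.3). That value, from 75 UMIs, pools unlike clusters. The Six3/Tle4 cluster (133 cells) had 1.80 CPM from 3 UMIs, and the Ebf1/Isl1 cluster (30 cells) 15.5 CPM from 4 UMIs. The Six3/Tle4 cluster had 2 deep-layer markers and 1 striatal marker among its 10 leading genes, so its name is uncertain. At E18 Gabra5 had 58.8 CPM (50.9 to 67.5) in deep-layer neurons, 30.1 CPM in excitatory neurons without a layer and 21.9 CPM in Lhx6 interneurons. It was at 0 UMIs in 5 E18 classes: newborn excitatory neurons, intermediate progenitors, cycling cells, oligodendrocyte lineage cells and microglia.

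Gabrb1 and Gabra4, the head-to-head pair, both had their highest class level in astroglial cells. Gabrb1 had 65.7 CPM (58.1 to 74.1) in P2 and 66.7 CPM (46.9 to 91.9) in E18 astroglial cells. The next P2 level was 18.4 CPM in oligodendrocyte lineage cells, and all P2 neuronal classes were at 5.35 CPM or less. At E18 deep-layer neurons had 35.4 CPM (29.4 to 42.4) and the Rorb cluster 54.3 CPM (42.3 to 68.7), which overlaps the astroglial interval. A Gabrb1 UMI was held by 45.7% of P2 and 25.0% of E18 astroglial cells, against 2 of 43 P2 microglia (4.65%), and thinned to 3000 UMIs the shares were 17.2% and 16.9%. Gabra4, which pairs with a delta subunit in receptors outside synapses of mature neurons, had 17.5 CPM (13.6 to 22.0) in P2 and 21.6 CPM (11.2 to 37.8, 12 UMIs) in E18 astroglial cells. E18 cycling cells had 14.3 CPM and E18 deep-layer neurons 12.1 CPM, whose intervals overlap that of E18 astroglial cells, and the Rorb cluster had 22.8 CPM. Both genes of the pair thus overlapped the astroglial interval in the Rorb cluster. The E18 deep-layer class had 53.2% of the astroglial Gabrb1 level. The 22 astroglial markers summed to 0.683% of their astroglial level there, with 6 at 0 (Ednrb, Tnc, Aqp4, Gja1, Agt and Itih3). The part of stray RNA in the deep-layer level was not tested.

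The P2 astroglial level of Gabrb1 came mainly from 1 of its 2 clusters. The cluster led by Aldoc, Crym, Mt3 and Clu (77 cells) had 153.9 CPM, and the cluster led by Mfge8, Id3, Slc6a11 and Fabp7 (96 cells) had 14.1 CPM. Gabra4 had 30.0 CPM in the Aldoc/Clu cluster and 10.1 CPM in the Mfge8/Id3 cluster. Slc12a2 had 76.6 CPM in the Aldoc/Clu cluster and 44.9 CPM in the Mfge8/Id3 cluster, and Gabra2 12.7 and 9.37 CPM.

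**Figure D2:**
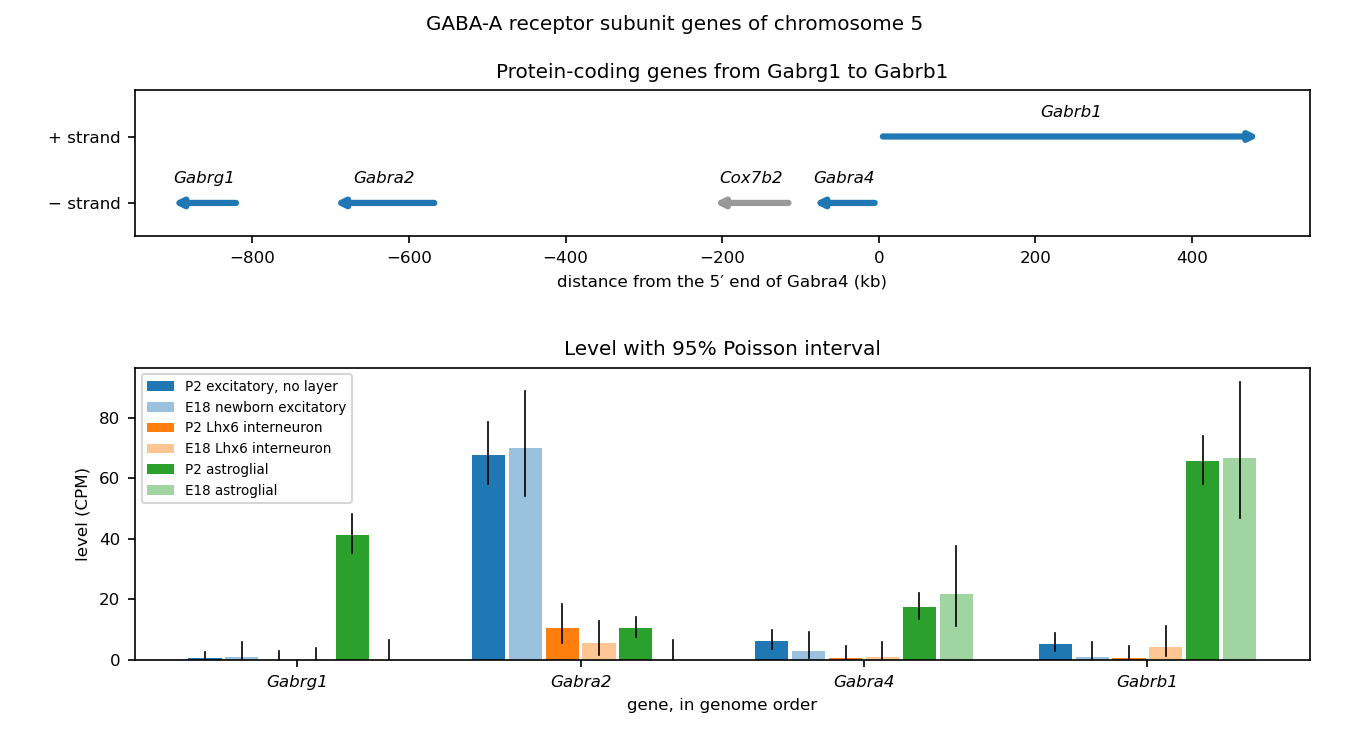
The upper panel maps the protein-coding genes from Gabrg1 to Gabrb1 on chromosome 5 by distance from the 5′ end of Gabra4 (kb), with arrows in the direction of transcription. The lower panel gives the level (CPM, bars, with 95% Poisson intervals) of the 4 subunit genes in P2 excitatory and E18 newborn excitatory neurons, Lhx6 interneurons and astroglial cells, P2 left of E18: Gabra2 is high in the excitatory classes drawn (67.7 CPM at P2 and 69.9 CPM in E18 newborn neurons), Gabra4 and Gabrb1 in both astroglial classes, and Gabrg1 in the P2 astroglial class (41.4 CPM).

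In the chromosome 5 group Gabra2 was thus highest in excitatory neurons, and Gabra4 and Gabrb1 in astroglial cells. Gabrg1, a gamma subunit 114.98 kb beyond Gabra2 and not one of the 8 genes, had 41.4 CPM in P2 astroglial cells and 0 UMIs in E18 astroglial cells. Gabrb2, the beta subunit common in adult synapses, was low throughout. It had 14.0 CPM (8.17 to 22.5) in P2 Lhx6 interneurons, 11.1 CPM in other P2 interneurons, 9.86 CPM in E18 Lhx6 interneurons and 8.93 CPM in P2 striatal projection neurons, and these intervals overlapped. Gabrb2 had 0 UMIs in 6 E18 classes (astroglial, cycling, intermediate progenitor, newborn excitatory, oligodendrocyte lineage and microglia).

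The chloride importer Slc12a2 (ENSMUSG00000024597, plus strand of chromosome 18) was found in every class. Microglia had the highest level, 155.6 CPM (130.8 to 183.7, 43 cells) at P2 and 148.9 CPM (76.9 to 260.1, 10 cells) at E18; Ccl4 and Ccl3, genes of activated microglia, led those clusters. At P2 oligodendrocyte lineage cells had 58.0 CPM (46.3 to 71.7), astroglial cells 56.6 CPM (49.5 to 64.4) and 9 ependymal cells 24 UMIs (32.0 to 74.4 CPM), and these did not differ beyond counting error. Replicating progenitors had 33.5 CPM and cycling cells 28.2 CPM. The 6 P2 neuronal classes lay close together, between 20.9 CPM in the Foxp2/Tshz1 cluster and 27.2 CPM in other interneurons. At E18 cycling cells had 28.7 CPM (19.3 to 40.9) and astroglial cells 25.2 CPM (13.8 to 42.3). The 6 E18 neuronal classes lay between 4.17 CPM in newborn excitatory neurons and 10.3 CPM in inhibitory neuroblasts. The whole range of P2 neuronal classes was above the whole range of E18 neuronal classes. In P2 neuronal classes the 10 microglial markers summed to 0.0308% to 0.0749% of their microglial level. Slc12a2 was at 13.4% to 17.5% of its microglial level there. The number of these markers at 0 UMIs ran from 1, in excitatory neurons and inhibitory neuroblasts, to 6 in Lhx6 interneurons. The part of stray microglial RNA in neuronal Slc12a2 was not tested.

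The exporter Slc12a5, known in the brain from neurons, was low outside a few neuronal classes. At P2 it had 14.3 CPM (9.99 to 20.0) in the Foxp2/Tshz1 cluster and 8.19 CPM in striatal projection neurons. At E18 it had 31.8 CPM (21.3 to 45.6, 29 UMIs) in Lhx6 interneurons, 7 UMIs (4.84 to 24.8 CPM) in inhibitory neuroblasts and 7.98 CPM in deep-layer neurons, with 16.0 CPM in the Hs3st4/Tle4 cluster. Every other class was at 2.73 CPM or less. P2 Lhx6 interneurons held 3 UMIs, P2 astroglial cells 2 and E18 astroglial cells 0. A Slc12a5 UMI was held by 12.5% of the P2 Foxp2/Tshz1 cluster (median 7913 UMIs) and 14.9% of E18 Lhx6 interneurons (median 4962.5 UMIs), beside 0 of 43 P2 microglia and 0 of 92 E18 astroglial cells.

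**Figure D3:**
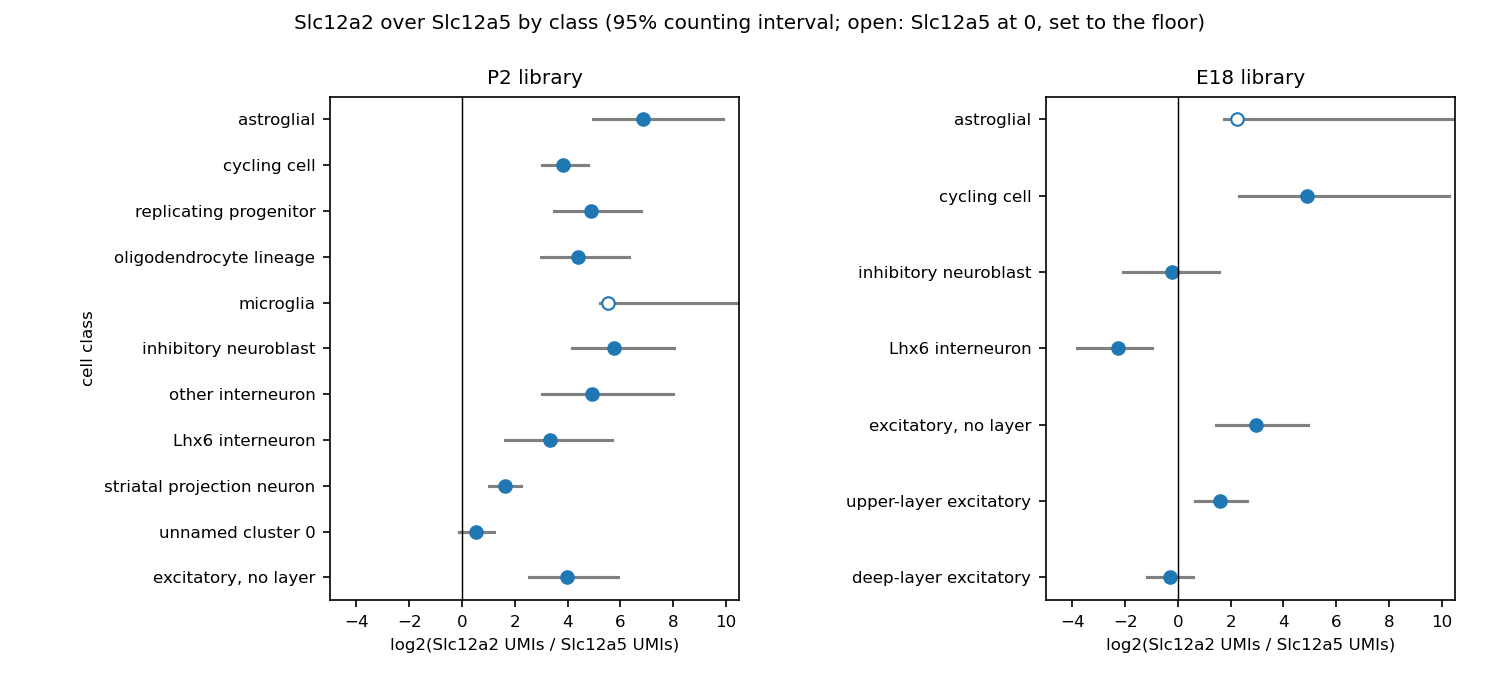
log2 of Slc12a2 UMIs over Slc12a5 UMIs per class in the P2 library (left) and the E18 library (right), with exact 95% counting intervals; open circles mark Slc12a5 at 0 UMIs, set to 3. Only the E18 Lhx6 interneurons lie wholly below 0 (-2.27), and the P2 astroglial class has the highest value (6.85) among classes with Slc12a5 UMIs. Classes under 30 cells or under 10 UMIs of the pair are left out.

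Set against each other class by class, the pair ran from more exporter than importer UMIs to almost no exporter UMIs. The values are log2 of Slc12a2 UMIs over Slc12a5 UMIs, a ratio in which cell size and depth cancel, with an exact conditional 95% interval. Transcript length shifts all classes by the same amount, -0.55 per exon kb (10.92 kb for Slc12a2 and 7.447 kb for Slc12a5). In the P2 library the Foxp2/Tshz1 cluster was lowest at 0.54 (-0.11 to 1.21), from 51 and 35 UMIs. Striatal projection neurons followed at 1.61 (1.03 to 2.23), from 101 and 33 UMIs. Those 2 intervals overlap. The striatal value pools unlike clusters: of its 33 Slc12a5 UMIs the Six3/Tle4 cluster held 3, with a ratio between 2.05 and 6.04, and the Ebf1/Isl1 cluster 1, with a ratio between 0.68 and 8.89. Lhx6 interneurons stood at 3.32 (1.64 to 5.68), cycling cells at 3.84, excitatory neurons at 3.98, oligodendrocyte lineage cells at 4.41, replicating progenitors at 4.87 and other interneurons at 4.93. Inhibitory neuroblasts at 5.75 (4.17 to 8.04; 161 and 3 UMIs) and astroglial cells at 6.85 (4.98 to 9.90; 230 and 2 UMIs) ended the order. From cycling cells on, every interval lay above that of striatal projection neurons. Microglia had 139 UMIs and 0, a log2 ratio of 5.53 with 3 UMIs in place of 0 (interval from 5.22 up). They may thus lie above astroglial cells. With each cell thinned to 3000 UMIs, the Foxp2/Tshz1 cluster was at -0.24 (11 and 13 UMIs). Astroglial cells kept 22 and 0 UMIs, a value of 2.87 with 3 UMIs in place of 0.

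In the E18 library the order began below 0. Lhx6 interneurons stood at -2.27 (-3.83 to -0.98), from 6 and 29 UMIs and -2.83 per exon kb, the only class of either library whose interval lay below 0 before or after correction for length. Deep-layer neurons stood at -0.30 (-1.18 to 0.57), with -1.28 (-2.79 to 0.06) in the Hs3st4/Tle4 cluster and 0.58 (-0.67 to 1.90) in the Nefl/Fezf2 cluster (0.42 for the class when thinned, from 8 and 6 UMIs), and inhibitory neuroblasts at -0.22 (-2.07 to 1.57). Upper-layer neurons stood at 1.58 (0.65 to 2.61) and excitatory neurons without a layer at 2.95 (1.45 to 4.92). Cycling cells had 30 UMIs of Slc12a2 and 1 of Slc12a5, a value of 4.91 (2.32 to 10.26). Astroglial cells had 14 and 0, a log2 ratio of 2.22 with 3 UMIs in place of 0 (interval from 1.73 up). From upper-layer neurons on, every interval lay above that of deep-layer neurons.

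Few cells held both transcripts. Among P2 striatal projection neurons 7 cells had a UMI of each, 70 of Slc12a2 alone, 21 of Slc12a5 alone and 221 of neither. In the Foxp2/Tshz1 cluster the counts were 8, 30, 23 and 187, and in E18 Lhx6 interneurons 2, 4, 23 and 139. At these depths a cell with neither cannot be read as lacking them. In P2 astroglial cells 2 held both, 101 held Slc12a2 alone and 0 held Slc12a5 alone.

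Neurons were then set against the astroglial cells of their own library, so that age, line and dissection did not differ. A gene was called where the CPM ratio was 2-fold or more and its exact 95% counting interval excluded 0 on the log2 scale, among genes with 10 or more UMIs over both classes. With 1 library an age there is no test over animals, and the intervals cover counting error alone. In P2 excitatory neurons 5 of the 8 genes had enough UMIs, of which 1 was called higher and 3 lower, beside 14% of all genes tested called higher and 22.7% lower. Gabra2 had 67.7 CPM in excitatory neurons and 10.6 CPM in astroglial cells, log2 2.68 (2.19 to 3.19). Gabrb1 (log2 -3.62), Gabra4 (-1.51) and Slc12a2 (-1.23) were lower in excitatory neurons, and Gabra5, at 0.81 (-0.74 to 2.38), was not called. In P2 striatal projection neurons all 8 had enough UMIs, and 4 were called higher and 3 lower, beside 14.4% and 26.2% of genes. Slc12a5 (log2 4.06), Gabra5 (3.24), Gabrb2 (3.18) and Gabra3 (2.60) were higher, and Gabrb1 (-4.05), Gabra4 (-3.55) and Slc12a2 (-1.18) lower. Gabra2 at 16.1 CPM in striatal neurons and 10.6 CPM in astroglial cells was under 2-fold. The Six3/Tle4 cluster, of uncertain name, is part of the striatal class.

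In P2 Lhx6 interneurons 6 genes had enough UMIs, 1 called higher and 3 lower, beside 13.4% and 21.8% of genes. Gabrb2 was higher (3.83, 2.22 to 5.86), and Gabrb1 (-6.32), Gabra4 (-4.40) and Slc12a2 (-1.19) were lower. Gabrb1 and Gabra4 had 1 UMI each in these cells, so their ratios are wide, -11.62 to -3.83 for Gabrb1 and -9.73 to -1.88 for Gabra4. The 3 P2 neuronal classes thus shared lower Gabrb1, Gabra4 and Slc12a2 than astroglial cells, and differed in the genes that were higher. They share the same astroglial cells, so these are not separate observations of that side.

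At E18 upper-layer neurons had 8 genes with enough UMIs, 2 called higher and 3 lower, beside 13.4% and 18.2% of genes. Gabra2 had 1464 UMIs in upper-layer neurons and 0 in astroglial cells. It was 40.7-fold higher with 3 UMIs in place of 0 (log2 interval from 5.05 up). Gabra5 was higher at log2 2.74 (0.22 to 8.06) against 1 astroglial UMI. Gabrb1 (-2.32), Slc12a2 (-2.11) and Gabra4 (-1.50) were lower. E18 deep-layer neurons had 3 called higher and 1 lower of 8, beside 15.5% and 19.1% of genes. With 3 UMIs in place of 0, Gabra2 was 13.4-fold (log2 interval from 3.44 up) and Gabra3 2.90-fold higher (from 1.19 up). Gabra5 was higher at log2 5.03 (2.53 to 10.34), and Slc12a2 was lower at -1.96. Gabrb1, at 35.4 CPM in deep-layer neurons and 66.7 CPM in astroglial cells, was under 2-fold. E18 Lhx6 interneurons had 3 called higher and 3 lower of 6, beside 17% and 18.5% of genes. With 3 UMIs in place of 0, Gabra3 was 6.89-fold (log2 interval from 2.41 up) and Slc12a5 5.88-fold higher (from 2.16 up). Gabra5 was higher at log2 3.60 (0.96 to 8.98), and Gabra4 (-4.30), Gabrb1 (-3.93) and Slc12a2 (-1.94) were lower. Slc12a2 was lower than in astroglial cells in all 6 neuronal classes compared, and Gabrb1 in 5 of the 6. At P2 the Slc12a2 calls rest on the Aldoc/Clu cluster (76.6 CPM): beside the 44.9 CPM of the Mfge8/Id3 cluster, the 24.1 CPM of excitatory, 25.1 CPM of striatal and 24.8 CPM of Lhx6 neurons were under 2-fold lower. Thinned, the Slc12a2 ratios over all P2 astroglial cells were -0.67 for excitatory and -0.84 for striatal neurons, under 2-fold, and -1.50 for Lhx6 interneurons.

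**Figure D4:**
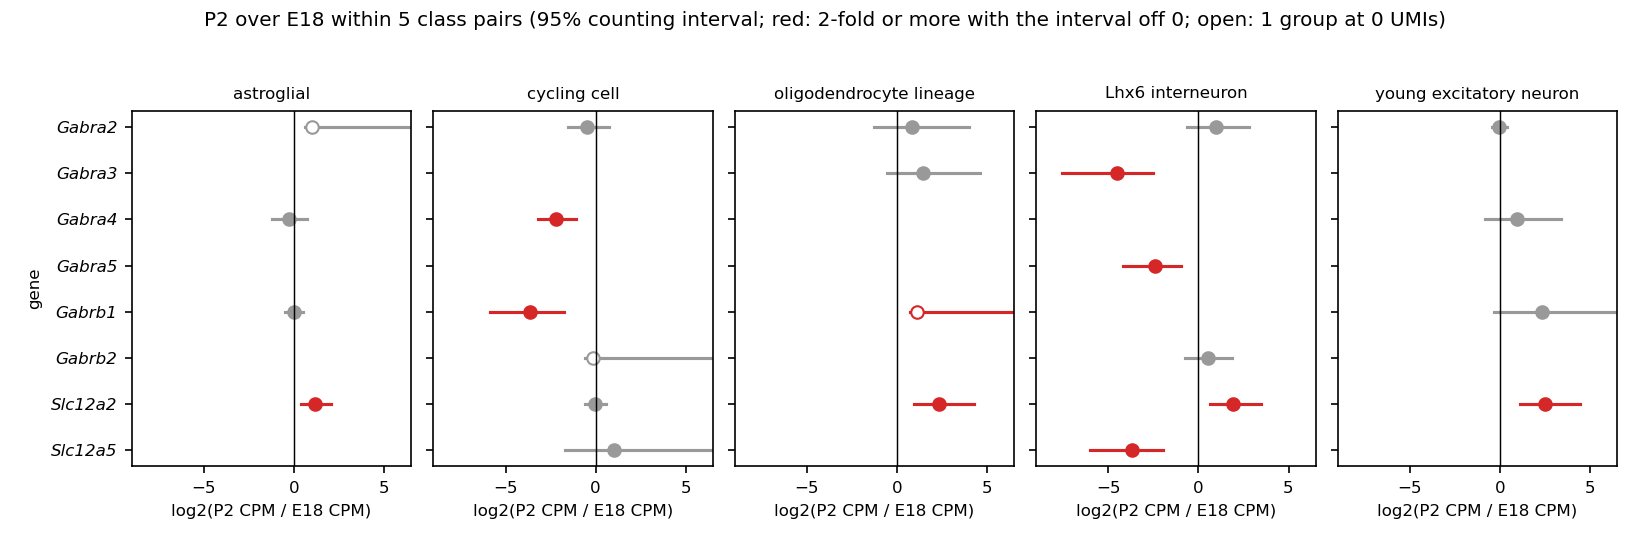
log2 of P2 CPM over E18 CPM for each gene (rows) in 5 class pairs (panels), with exact 95% counting intervals; red marks 2-fold or more with the interval off 0, open circles a group at 0 UMIs set to 3, and genes under 10 UMIs are left out. Slc12a2 is higher at P2 in 4 of the 5 panels, and Gabra3, Gabra5 and Slc12a5 are lower at P2 in Lhx6 interneurons.

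Ages were compared in 5 pairs with no cluster led by markers of another class, which left out inhibitory neuroblasts. Of these, 4 were classes held by both libraries, and the other, called young excitatory neurons, set P2 excitatory neurons without a layer against E18 newborn excitatory neurons, a class not found at P2. Here P2 and E18 differ in dissection and mouse line as well as age. Slc12a2 was called higher at P2 in 4 of the 5 pairs. It had 56.6 CPM in P2 and 25.2 CPM in E18 astroglial cells (log2 1.17, 0.39 to 2.06), 58.0 and 11.4 CPM in oligodendrocyte lineage cells (2.35, 0.94 to 4.26), 24.8 and 6.58 CPM in Lhx6 interneurons (1.91, 0.62 to 3.47), and 24.1 and 4.17 CPM in young excitatory neurons (2.53, 1.10 to 4.45). In cycling cells Slc12a2 had 28.2 CPM at P2 and 28.7 CPM at E18, a log2 ratio of -0.02 (-0.58 to 0.58), which was 0.86 with doublets kept. With each cell thinned to 3000 UMIs the astroglial ratio was 0.32 (22 UMIs in 163 P2 cells and 9 in 83 E18 cells) and the oligodendrocyte lineage ratio 1.42 (9 and 2 UMIs). Neither was then called. The ratio in young excitatory neurons was 2.99 and still called, and Lhx6 interneurons kept too few UMIs, 4 and 1, for a value. These ratios come from 1 pair of libraries, and the share of genes called higher at P2 was 14.7% in astroglial cells, 18.3% in oligodendrocyte lineage cells, 18.6% in Lhx6 interneurons and 14.7% in young excitatory neurons.

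In Lhx6 interneurons, Slc12a2 and 3 other genes were called. Of 6 with enough UMIs, 1 was higher and 3 lower, beside 18.6% of all genes called higher and 9.82% lower. Gabra3 had 1.65 CPM (2 UMIs) in P2 and 37.3 CPM (34 UMIs) in E18 cells, log2 -4.50 (-7.60 to -2.53). Slc12a5 had 2.48 CPM (3 UMIs) at P2 and 31.8 CPM (29 UMIs) at E18, log2 -3.68 (-6.04 to -1.99). Gabra5 had 4.13 CPM at P2 and 21.9 CPM at E18, log2 -2.41 (-4.18 to -0.95). Gabrb2 (0.51) and Gabra2 (0.97) were not called. Neuron maturation genes differed in the same class: 2 of 9 tested were called higher and 5 lower at P2, with a median log2 of -1.34 beside 0.16 for all genes. Syt1, a calcium sensor of transmitter release, had 74.3 CPM at P2 and 318.9 CPM at E18, and Vamp2 149.4 and 377.0 CPM. The 10 inhibitory neuroblast markers summed to 3963 CPM at P2 and 1474 CPM at E18, and the 12 interneuron markers to 3131 and 3611 CPM. The 8 excitatory markers summed to 214.5 CPM in P2 and 1802 CPM in E18 Lhx6 interneurons. The highest level in an E18 excitatory class was 15.7 CPM for Gabra3, 7.98 CPM for Slc12a5 and 58.8 CPM for Gabra5. Within the deep-layer class the Hs3st4/Tle4 cluster had 18.8 CPM of Gabra3 and 16.0 CPM of Slc12a5. The part of the marker differences in the result was not tested.

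In astroglial cells 4 genes had enough UMIs, and Slc12a2 was the 1 called, as higher, beside 14.7% of genes called higher and 5.48% lower. Gabrb1 had 65.7 CPM at P2 and 66.7 CPM at E18 (log2 -0.02, -0.52 to 0.52), and Gabra4 17.5 and 21.6 CPM (-0.31, -1.20 to 0.71). The pooled P2 value of Gabrb1 covers unlike clusters: against the E18 class the Aldoc/Clu cluster was higher (1.21, 0.70 to 1.75) and the Mfge8/Id3 cluster lower (-2.25, -2.95 to -1.54), a split looked at after seeing the data. Slc12a2 was called higher in the Aldoc/Clu cluster (1.60) and stood at 0.83 (0.03 to 1.75), under 2-fold, in the Mfge8/Id3 cluster. Gabra2 had 43 UMIs in P2 and 0 in E18 astroglial cells. With 3 UMIs in place of 0 it was 1.96-fold higher (log2 interval from 0.61 up) and so not called. P2 astroglial cells held 2.59% of the excitatory marker level of P2 excitatory neurons and 15.6% of their Gabra2 level. The 12 radial precursor markers summed to 23519 CPM in P2 and 40297 CPM in E18 astroglial cells, and the 10 maturing astrocyte markers to 1551 CPM at P2 and 987.5 CPM at E18. Their part in the result was not tested.

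In cycling cells 6 genes had enough UMIs and 2 were called lower, beside 13.2% of genes called higher and 11.6% lower. Gabra4 had 3.19 CPM at P2 and 14.3 CPM at E18 (log2 -2.17, -3.19 to -1.11), and Gabrb1 0.607 CPM from 4 UMIs at P2 and 7.65 CPM from 8 UMIs at E18 (-3.66, -5.84 to -1.75). The 12 radial precursor markers summed to 2247 CPM in P2 and 13768 CPM in E18 cycling cells, and the 10 inhibitory neuroblast markers to 2989 and 603.2 CPM. Their part in the result was not tested. In oligodendrocyte lineage cells 4 genes had enough UMIs and 2 were called higher, beside 18.3% of genes called higher and 4.36% lower. They were Slc12a2, and Gabrb1 with 27 UMIs in P2 and 0 in E18 cells. Gabrb1 was 2.16-fold higher with 3 UMIs in place of 0 (log2 interval from 0.71 up). The Gabrb1 call was lost with doublets kept, where the log2 ratio was -0.027, and at 5% mitochondrial UMIs (0.21), resolution 0.5 (0.36), with all variable genes (0.22) and with TMM scaling (0.94). The 7 committed oligodendrocyte markers summed to 2361 CPM at P2 and 167.9 CPM at E18, and their part was not tested either. In young excitatory neurons, P2 excitatory cells set against E18 newborn excitatory cells, 4 genes had enough UMIs and Slc12a2 was the 1 called, as higher, beside 14.7% of genes called higher and 4.49% lower. Gabra2 had 67.7 CPM in P2 and 69.9 CPM in E18 cells there (log2 -0.05, -0.46 to 0.38), so the interval excludes a difference of 2-fold between these classes in either direction. This holds for the newborn class alone: E18 excitatory neurons without a layer had 226.6 CPM of Gabra2. The 7 newborn excitatory markers summed to 1308 CPM in P2 and 2287 CPM in E18 cells, and their part was not tested.

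Descent from the Emx1-expressing primordium was read from EYFP, which 81.9% of P2 excitatory neurons, 13.5% of striatal projection neurons and 0 of 43 microglia held. A cell without an EYFP UMI may still be a labelled cell. Among astroglial cells, 87 positive and 86 negative, 0 of 4 genes were called, beside 4.91% of all genes. Gabrb1 had 59.7 CPM in positive and 73.0 CPM in negative astroglial cells (log2 -0.29, -0.65 to 0.07), and Slc12a2 60.2 and 52.3 CPM (0.20, -0.19 to 0.60). In cycling cells 0 of 5 genes were called, beside 3.49% of genes, and in replicating progenitors 0 of 1, beside 3.84%. Slc12a2 had 27.0 CPM in positive and 41.0 CPM in negative replicating progenitors, log2 -0.60 (-1.16 to -0.05), short of 2-fold. Inhibitory neuroblasts were looked at by cluster, since 1 of their 3 clusters had a marker of another class and none of its own among its 10 leading genes. In the Synpr/Sp8 cluster Gabra2 had 13.7 CPM (13 UMIs, 94 cells) in positive and 56.6 CPM (20 UMIs, 45 cells) in negative cells, log2 -2.04 (-3.17 to -0.97). In the Ccnd2/St18 cluster it had 2.38 and 3.90 CPM (-0.71, -2.93 to 1.27). In the remaining cluster (20 positive and 147 negative cells) it had 6.67 and 20.9 CPM (-1.65, -4.76 to 0.34). No other gene of the set had an interval off 0 in these clusters. The share of all genes that differ was not computed for them.

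**Figure D5:**
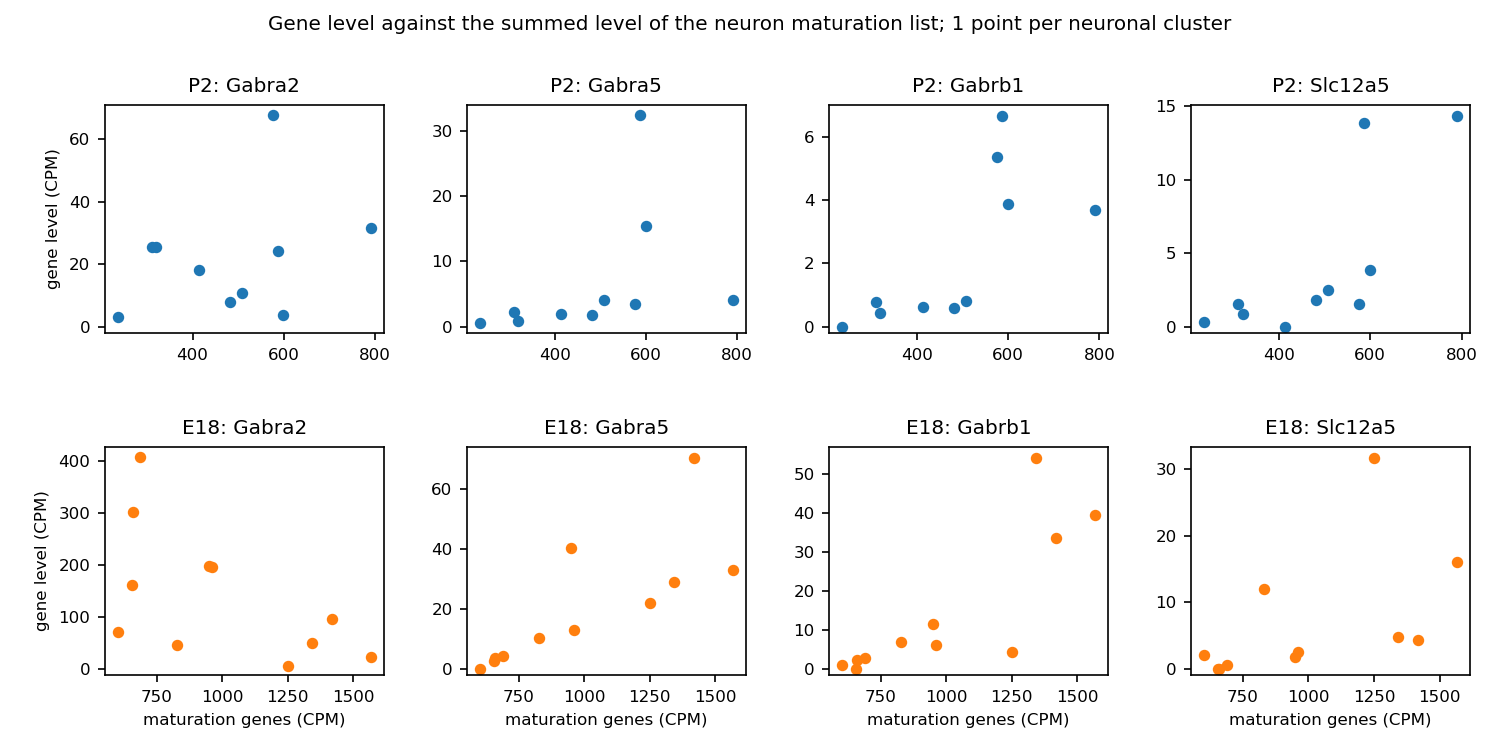
Level (CPM) of Gabra2, Gabra5, Gabrb1 and Slc12a5 against the summed CPM of 10 neuron maturation genes, 1 point per neuronal cluster, for the P2 library (upper row, 10 clusters) and the E18 library (lower row, 11 clusters). Gabra5, Gabrb1 and Slc12a5 tend to be higher in clusters with more maturation RNA in both libraries, Gabrb1 from few UMIs at P2. Gabra2 tends to be lower in them at E18. Axes are linear, while r in the text is taken on log2 levels.

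Across neuronal clusters the level of 4 of the genes, Gabra3, Gabra5, Gabrb1 and Slc12a5, went with that of maturation genes in both libraries. Pearson's r was taken between log2(CPM + 1) of a gene and log2(CPM + 10) of 10 maturation genes summed. It was 0.75 for Gabra3, 0.66 for Gabra5, 0.81 for Gabrb1 and 0.76 for Slc12a5 over 10 P2 clusters. Over 11 E18 clusters it was 0.91 for Gabra3, 0.89 for Gabra5, 0.88 for Gabrb1, 0.82 for Gabrb2 and 0.71 for Slc12a5. Gabrb2 had r of 0.31 at P2. The other genes had lower r: Gabra2 had 0.32 at P2 and -0.60 at E18, Gabra4 -0.10 at P2 and 0.43 at E18, and Slc12a2 0.14 at P2 and 0.36 at E18. The P2 value for Gabrb1 rests on few UMIs. P2 neuronal classes were at 5.35 CPM of Gabrb1 or less, and Lhx6 and other interneurons held 1 UMI each. Clusters of a library share that library and its stray RNA and differ in depth, so these are descriptions.

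The genes closest in pattern to 3 of the 8 were ranked among 4463 genes over 11 P2 and 10 E18 classes, by the lower of the within-library correlations of log2(CPM + 10). Nearest to Gabra2 were Ppfia2 (0.91), Rnf182 (0.88) and Syt4 (0.87). Nearest to Gabrb1 were Cyb5a (0.85), Sybu (0.83) and Dtna (0.82). Nearest to Slc12a2 were Rap1a (0.95), P4hb (0.91) and Anxa2 (0.89). The other 5 genes did not reach 20 CPM in a class of each library.

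Other genes of GABA signalling were measured in the same classes. Of other GABA-A subunits, 0 of 4 tested were called between P2 and E18 Lhx6 interneurons, beside 18.6% of all genes called higher and 9.82% lower. Over astroglial cells, 2 of 5 tested were called higher and 2 lower in P2 excitatory neurons (all genes 14% and 22.7%), 4 and 1 of 5 in P2 striatal neurons (14.4% and 26.2%), and 4 and 1 of 5 in P2 Lhx6 interneurons (13.4% and 21.8%). At E18 the counts were 2 and 0 of 3 in upper-layer neurons (13.4% and 18.2%), 3 and 0 of 5 in deep-layer neurons (15.5% and 19.1%), and 3 and 0 of 3 in Lhx6 interneurons (17% and 18.5%). Gabrg1, at 41.4 CPM in P2 astroglial cells, was called lower in all 3 P2 comparisons.

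Genes of GABA supply and clearance were called higher in P2 than in E18 astroglial cells in 5 of 7 tested, beside 14.7% of all genes, with a median log2 of 2.28, genes at 0 UMIs set to 3, beside 0.21 for all genes. Slc6a11 (GAT3), the astrocyte GABA transporter, had 212.4 CPM at P2 and 34.2 CPM at E18. Gad2, a GABA-making enzyme of neurons, was also among them, at 26.3 CPM in P2 and 0 UMIs in E18 astroglial cells. It had 40.1 CPM in P2 excitatory neurons and 554.7 CPM in P2 inhibitory neuroblasts. The part of stray RNA in the P2 library in this result was not tested. Of the metabotropic GABA-B genes, Gabbr1 reached 220.4 CPM in P2 striatal neurons and 237.8 CPM in E18 Lhx6 interneurons, and its auxiliary subunit Kctd12 reached 407.4 CPM in P2 microglia and 127.6 CPM in E18 deep-layer neurons. Between P2 and E18 astroglial cells Gabbr1 had 160.2 and 147.8 CPM and was not called. Of 11 to 13 scaffold and trafficking genes tested, 3 to 6 were called higher and 0 lower than in astroglial cells in each of the 6 neuronal comparisons, beside 13.4% to 17% of all genes called higher and 18.2% to 26.2% lower. The lowest count, 3 of 13 in E18 upper-layer neurons, stood beside 13.4%. Gabarapl1 was highest in P2 other interneurons (124.4 CPM) and E18 deep-layer neurons (216.8 CPM), and Lhfpl4, a partner of synaptic GABA-A receptors, in E18 Lhx6 interneurons (75.6 CPM). Gabarap, which links receptors to trafficking and also serves autophagy, was highest in microglia of both libraries, at 743.1 CPM at P2 and 819.0 CPM in the 10 E18 cells, beside 798.3 CPM in E18 astroglial cells. Nlgn2, an adhesion protein of inhibitory synapses, and Gphn, their scaffold, were highest at P2 in oligodendrocyte lineage cells, at 118.1 and 81.2 CPM. Among enzymes and carriers of GABA neurons, Gad1 was highest in P2 Lhx6 interneurons (252.5 CPM) and E18 inhibitory neuroblasts (225.2 CPM), and Slc32a1, which fills vesicles with GABA, in E18 inhibitory neuroblasts (189.1 CPM).

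None of the other cation-chloride cotransporters was called higher in neurons. In the 6 neuronal comparisons 0 were called higher and 1 to 3 lower than in astroglial cells, of 3 or 4 tested, beside 13.4% to 17% of all genes called higher and 18.2% to 26.2% lower. With so few genes tested, the lowest of these counts are near the shares of all genes. Slc12a4 (KCC1), a housekeeping exporter, had 3.82 CPM in P2 excitatory neurons and 23.6 CPM in P2 astroglial cells (log2 -2.63). Slc12a9 was the 1 gene of this list above 50 CPM in a class of 30 or more cells, at 78.3 CPM in P2 microglia. Among kinases and partners, Ckb, a creatine kinase that binds Slc12a5, had 4636 CPM in P2 astroglial cells and 1890 CPM in E18 oligodendrocyte lineage cells. Neto2, an auxiliary protein that binds Slc12a5, was highest in E18 deep-layer neurons at 241.3 CPM, and Wnk1, a kinase upstream of both transporters, in P2 microglia at 252.9 CPM and E18 cycling cells at 88.9 CPM.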

How the data were processed

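The deposited files hold whole-number UMI counts per gene and cell barcode for 1 library of each age, made by the authors with Cell Ranger (version 4.0.0 per the file headers, version 4 and build mm10 per the submitters' processing notes). No source used here gives the kit chemistry, cell calling or aligner settings. Barcodes with at least 500 genes and at most 10% mitochondrial UMIs were kept (336 P2 and 291 E18 barcodes removed). Scrublet at an expected rate of 0.05 called 0.164% of P2 and 0.266% of E18 cells, too few to be a working threshold, so cells in the top 5% of scores were dropped (146 and 135). Cells were clustered per library with scanpy 1.11.5 in Python 3.11.15 (2000 variable genes, 30 principal components, 15 neighbours, Leiden resolution 1). A cluster was named from marker lists by a scoring rule chosen after seeing the data, which needed at least 3 markers detected.

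UMIs were summed per class and given as CPM of all UMIs of that class. Exact Poisson, Clopper-Pearson and conditional binomial intervals of 95% cover counting error only. A group at 0 UMIs was set to 3 UMIs over the group to give a ratio. Such a ratio is not a bound, since its interval can begin below it. Class comparisons used classes of at least 50 cells and were tested on simulated data with known changes. With 1 library per age there were no tests over animals. The genes and lists were chosen with earlier results of these data known. All 8 genes were described. From each other list, up to 5 genes with the highest level of at least 50 CPM in a class of 30 or more cells were the ones to be named, and genes named beyond these were chosen after their values were seen. Alternatives were another doublet, mitochondrial, resolution or clustering-gene setting, TMM scaling (edgeR 4.0.16 in R 4.3.3), thinning to 3000 UMIs, other UMI minimums, a cycling-cell comparator and length correction.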

Additional observations from a re-analysis of the deposited data

Results flagged for a closer look

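Gabrb1 went in opposite directions between the ages in 2 classes. In oligodendrocyte lineage cells the log2 ratio of P2 over E18 was 1.11, from 27 UMIs in P2 cells and 0 in E18 cells. The 0 was replaced to give that ratio, which is not a bound (log2 interval from 0.71 up). In cycling cells the log2 ratio was -3.66, from 4 UMIs in P2 cells and 8 in E18 cells. With doublets kept the oligodendrocyte lineage value was -0.027, so the directions were then not opposite. The difference between the classes was not tested, since each age has 1 library.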

How the results depend on the processing

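No paired analysis was possible because each age has 1 library, and for the same reason no replicate could be left out. Of the single-gene values under alternative settings, 571 of 627 stayed near the reported value, 51 moved and 5 were counted as reversed. The values without a UMI minimum (75) and with a minimum of 50 UMIs (36) could not move. Those settings change only which genes pass. Values that a setting could not give, many of them lost by thinning, are not among the 627. These 5 are not every change of sign. Under TMM all 75 values were counted as near, although Slc12a2 in cycling cells, not called, turned its sign. Gabrb1 in oligodendrocyte lineage cells, P2 over E18, was -0.027 with doublets kept. With cycling cells in place of astroglial cells, Gabra4 was 0.94 and Gabrb1 3.14 in P2 excitatory neurons, and Gabrb1 was 2.71 in P2 striatal projection neurons and 0.81 in E18 upper-layer neurons. The causes were not tested. Of 119 counts of genes called, 26 moved by more than 1.5 times. For P2 over E18 oligodendrocyte lineage cells the count was 1 with doublets kept, at 5% mitochondrial UMIs, at resolution 0.5, with all variable genes, with TMM and at a minimum of 50 UMIs, and 0 when thinned (2 reported). For young excitatory neurons it was 2 at 5% mitochondrial UMIs, at resolution 0.5 and with all variable genes (1 reported). For astroglial cells it was 3 at resolution 0.5, 2 with all variable genes, 0 when thinned and 3 with the Aldoc/Clu cluster alone, an alternative chosen after seeing the data (1 reported). For cycling cells it was 1 with all variable genes and 0 when thinned or at 50 UMIs (2 reported). For P2 over E18 Lhx6 interneurons it was 0 at 50 UMIs (4 reported). Over astroglial cells, thinning gave 3 in P2 striatal neurons (7 reported), 2 in P2 Lhx6 interneurons (4 reported) and 3 in E18 upper-layer neurons (5 reported), and a minimum of 50 UMIs gave 4 in P2 striatal neurons and 0 in E18 Lhx6 interneurons (6 reported), since fewer genes passed. The cycling comparator gave 1 in P2 Lhx6 interneurons, 3 in E18 upper-layer neurons and 7 in E18 deep-layer neurons (4 reported). TMM moved the median of all genes by 0.20 in P2 striatal over astroglial cells, 0.33 in E18 upper-layer and 0.28 in E18 deep-layer neurons, 0.13 in cycling cells and -0.17 in oligodendrocyte lineage cells. Under TMM none of the 8 genes changed sign where it had been called. The value of Slc12a2 in cycling cells, -0.02 and not called, was smaller than the shift of 0.13 there, so its sign turned. Of the pair ratios 112 of 121 stayed near the reported value and 9 moved, 6 of them when thinned. Those were P2 and E18 astroglial cells (2.87 and 1.58), P2 microglia (2.00) and P2 excitatory neurons, all with Slc12a5 at 0 set to 3. The others were replicating progenitors (3.17) and the Foxp2/Tshz1 cluster, which turned to -0.24. E18 deep-layer neurons turned to 0.42. Some settings gave no value, such as E18 cycling cells at resolution 0.5.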
